A study of Saccharomyces cerevisiae with 48 samples.

Results

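The libraries described here are 8 pull-downs of biotinylated trimethylpsoralen (bTMP) from budding yeast in logarithmic growth, taken as 4 pairs that differ in sen1 and in nothing else named by the labels. They are 8 of the 48 libraries of the series and 8 of the 24 that have a peak list, and they were chosen by their labels. The pairs are sen1 against wild type (WT), sen1rrm3 against rrm3, sen1top1 against top1, and sen1rrm3top1 against rrm3top1. In each pair the strain with SEN1 intact is called the control. All 8 cultures grew in YPG and were then kept in YPD for 2.5 h before collection. Each strain has 1 library (n = 1), the labels give genotypes by gene name only, without the allele, and no label states the parent strain. The 4 pairs are therefore the repeats of the sen1 contrast, each on another background.

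bTMP slips between the bases of DNA and crosslinks there under ultraviolet light, more readily where the helix is underwound. A peak therefore marks DNA that took up more of the compound, as negatively supercoiled DNA does behind a moving RNA polymerase or at an open promoter. Sen1, a helicase, works with the RNA-binding proteins Nrd1 and Nab3 to release RNA polymerase II from short non-coding transcription units. Rrm3 is a helicase that helps replication forks pass protein barriers such as those at tRNA genes and the rDNA, and Top1 is a topoisomerase that relaxes supercoils. The comparison asks which genes and kinds of sequence lay under more or fewer bTMP peaks whenever sen1 was present.

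Peaks numbered 3490 to 4901 per list, and between 8.34% and 11.7% of the nuclear genome lay under them. Read depth is unknown because the files hold peaks only. The median peak was 242 to 258 bp wide, and the smallest gap between peaks was 156 to 166 bp, so the lists are of one kind. WT covered 8.34% and sen1 8.82%. rrm3 covered 10.2% and sen1rrm3 8.39%. top1 covered 11.7% and sen1top1 11.5%. rrm3top1 covered 9.44% and the list labelled sen1rrm3top1 10.8%. The sen1 list covered more in 2 pairs and less in 2, and the mean log2 difference was -0.0052 ± 0.20 (SD, n = 4 pairs, two-sided exact sign-flip permutation test, p = 1). Without the pair on rrm3top1 it was -0.07, and without the pair on rrm3 0.08. With 4 pairs this test cannot give a p below 0.125, so no single value can pass 0.05.

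One list stood apart from the rest. On chromosome XII beyond the rDNA, the list labelled sen1rrm3top1 had a relative coverage of 2.51, where relative coverage is the share of base pairs under peaks divided by that share over the nuclear genome. The other 7 lists lay between 0.700 and 1.06 there. Of the 311 genes beyond the rDNA, 187 had at least 10 percentage points more cover in sen1rrm3top1 than in rrm3top1 and 4 had as much less. In the other 3 pairs 27 to 43 were higher and 27 to 42 lower. What sets this list apart there was not tested, and several results below are given without its pair as well.

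**Figure D1:**
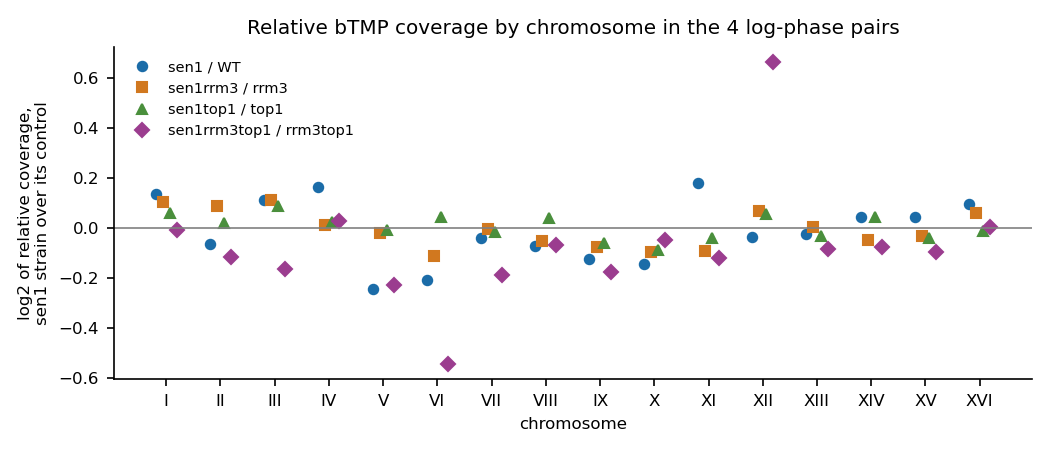
Relative bTMP coverage of each of the 16 chromosomes, as the log2 ratio of the sen1 strain over its control, with 1 symbol per pair. Most values lie within 0.2 of zero, and chromosome XII in the pair on rrm3top1 stands at 0.66, with the other 3 pairs between -0.04 and 0.07.

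By chromosome, relative coverage moved the same way in 4 of 4 pairs on IV, where it was higher, and on V, VII, IX and X, where it was lower. On chromosome X the log2 difference was -0.14 on WT, -0.10 on rrm3, -0.09 on top1 and -0.05 on rrm3top1. On IX it was -0.12, -0.08, -0.06 and -0.18 in the same order. For both the exact sign-flip permutation p was 0.125, the smallest possible, and 0.400 after Benjamini-Hochberg adjustment over 16 chromosomes. Relative coverage divides by the share over the whole nuclear genome. Chromosome XII stood at 1.77 in sen1rrm3top1 and 1.12 in rrm3top1, which by itself lowers the other chromosomes in that pair. The chromosomes were not compared with XII left out, so a small negative value on rrm3top1, as on X, is uncertain in sign.

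The genotype labels were checked at the mutated genes. RRM3 had no peak in rrm3, sen1rrm3, rrm3top1 or sen1rrm3top1. In the 4 lists with RRM3 intact, peaks covered 23.6% of the gene in WT, 26.0% in sen1, 34.5% in top1 and 22.6% in sen1top1. TOP1 had no peak in top1, sen1top1 or rrm3top1, and the list labelled sen1rrm3top1 had 1 peak of 249 bp inside it, which covered 10.8% of the gene. The labels do not say what the top1 mutation removes. TOP1 itself also differed between the lists with the gene intact. It held the 2 highest-scoring peaks of the sen1, rrm3 and sen1rrm3 lists, while its 1 peak in WT ranked 1786 of 3558. Peaks covered 14.3% of TOP1 in WT, 44.2% in sen1, 41.3% in rrm3 and 41.4% in sen1rrm3.

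A large difference that followed sen1 in every pair lay just upstream of SEN1 itself. In WT and top1, 90.7% of the 300 bp before the gene lay under a peak, and in rrm3 and rrm3top1 90.0% did. In all 4 sen1 lists the value was 0%. The stretch covered in all 4 controls and in none of the sen1 lists ran from 993164 to 993436 on chromosome XII, 273 bp, and was the longest stretch found in the controls only. Over the body of SEN1 the values did not separate: they were 1.72%, 7.51%, 9.15% and 1.49% in WT, rrm3, top1 and rrm3top1, and 6.56%, 0%, 7.20% and 11.7% in their sen1 partners.

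The reverse was seen upstream of GAL1, the galactokinase gene, inside the antisense RNA gene YNCB0008W. Of the 300 bp before GAL1, peaks covered 89.3% in sen1, 58.0% in sen1rrm3, 89.7% in sen1top1 and 94.3% in sen1rrm3top1. All 4 controls had 0%. The body of GAL1 went the other way, from 15.6% to 0% on WT, 15.1% to 0% on rrm3, 19.4% to 16.6% on top1 and 15.6% to 0% on rrm3top1. The stretch shared by the 4 sen1 lists ran from 278842 to 279015 on chromosome II, 174 bp. By the authors' score the peak ranked 79 of 3789 in sen1, 213 of 3490 in sen1rrm3, 81 of 4678 in sen1top1 and 1 of 4312 in sen1rrm3top1. Upstream of GAL10, which faces GAL1 across the same stretch, the groups lay close together, at 42.7% to 47.7% in the controls and 48.3% to 50.7% in the sen1 lists. GAL7 and GAL80 had no peak in any list.

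**Figure D2:**
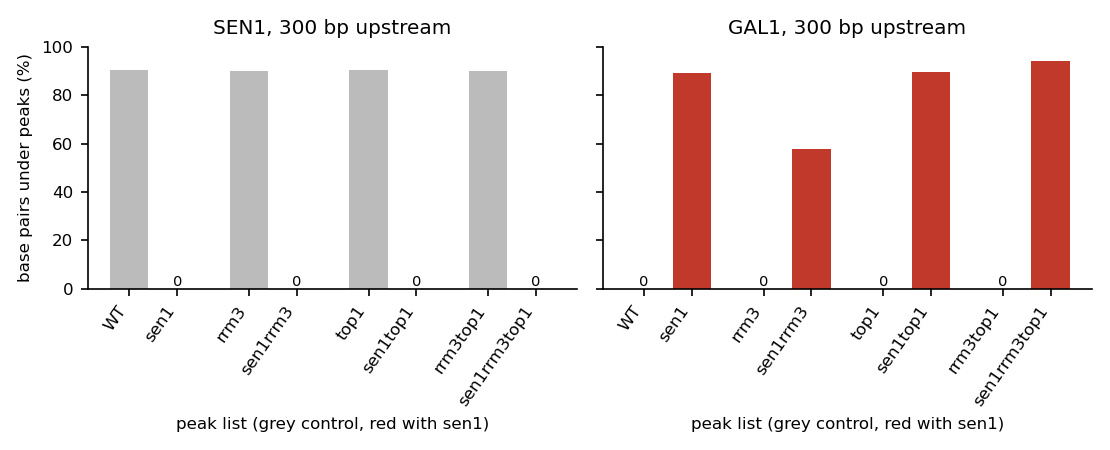
Share of the 300 bp upstream of SEN1 (left) and of GAL1 (right) that lay under bTMP peaks in each of the 8 lists, in percent, with controls in grey and sen1 lists in red. The controls have 90.0% to 90.7% before SEN1 and 0% before GAL1, and the sen1 lists 0% before SEN1 and 58.0% to 94.3% before GAL1.

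Both stretches were then followed in lists that took no part in finding them. At 32 °C the sen1 and sen1rrm3 lists are of another kind than their controls, with smallest gaps between peaks of 631 and 591 bp against 162 bp, so those 2 pairs are given as values only. In cultures at 32 °C the SEN1 stretch was covered at 32.2% in WT, 98.2% in rrm3, 100% in top2-1 and 94.9% in rrm3top2-1, and at 0% in the 4 sen1 strains. In S phase no list covered it. The GAL1 stretch was covered at 94.3% in sen1top2-1 and 88.5% in sen1rrm3top2-1 at 32 °C, and at 0% in sen1 and sen1rrm3 there, in all 4 controls there and in all 4 S-phase lists. In S-phase Rpb1 lists, which map the largest subunit of RNA polymerase II, the SEN1 stretch was covered at 0% in WT and rrm3 and at 100% in sen1 and sen1rrm3. The labels do not say how the sen1 strains were built, and the part of that in these 2 differences was not tested.

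The members of a pair shared most of their peaks. In the pair on WT, 67.5% of the WT peaks and 63.4% of the sen1 peaks overlapped a peak of the partner by at least 1 bp. On rrm3 the shares were 68.5% of the control and 83.3% of the sen1rrm3 list. On top1 they were 76.0% and 79.2%, and on rrm3top1 74.8% and 65.5%. The Jaccard index, the covered base pairs common to both lists over those in either, was 0.435, 0.571, 0.583 and 0.476 in that order. Over all 8 lists, 19.9% of the nuclear genome lay under a peak somewhere and 2.49% lay under one in every list.

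Gene by gene, each pair differed at many places and the pairs seldom at the same ones. A gene's window was its body plus 300 bp upstream, and a difference counted when the covered share moved by at least 10 percentage points. Of 6431 nuclear genes, sen1 was higher than WT in 831 (12.9%) and lower in 745 (11.6%). sen1rrm3 was higher than rrm3 in 335 (5.21%) and lower in 808 (12.6%). sen1top1 was higher than top1 in 574 (8.93%) and lower in 740 (11.5%). sen1rrm3top1 was higher than rrm3top1 in 894 (13.9%) and lower in 654 (10.2%). In 942 genes, pairs passed the limit in opposite directions, and 1664 genes had no peak in any of the 8 lists.

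In 4 of 4 pairs the same way, 6 genes at 5 loci were higher (0.0933% of genes tested) and 17 genes at 11 loci were lower (0.264%). The same rule applied to the same 8 libraries, paired instead by rrm3, gave 57 genes higher (0.886%) and 23 lower (0.358%), and paired by top1 gave 71 higher (1.1%) and 20 lower (0.311%). These 3 sets of pairs share all their libraries, so the counts stand side by side only. With 1 pair left out and the rule set to 3 of 3, sen1 gave 14 higher and 42 lower without the pair on WT, 38 and 44 without rrm3, 27 and 57 without top1, and 13 and 49 without rrm3top1. Each of these sets held all 23 genes, as the looser rule makes certain.

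**Figure D3:**
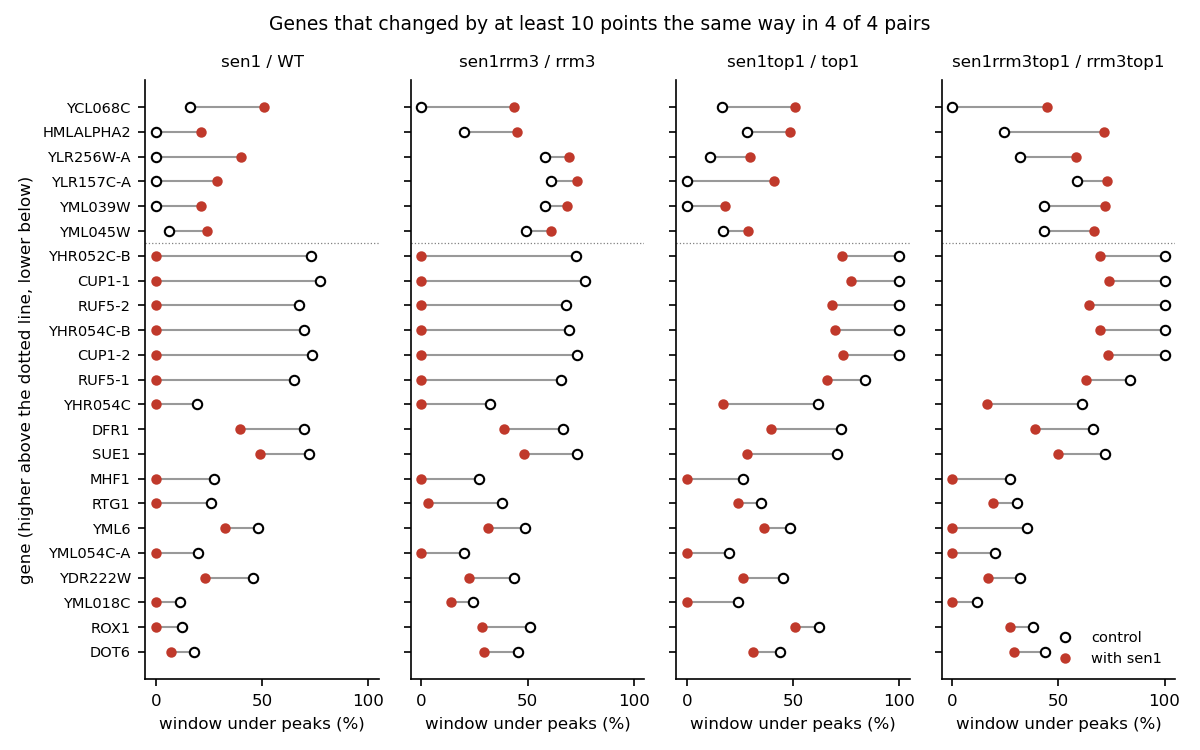
Percent of each gene window (body plus 300 bp upstream) under bTMP peaks in the control (open circles) and its sen1 partner (red) for the 23 genes that differed by at least 10 points the same way in all 4 pairs, which form the 4 panels. The 6 genes above the dotted line are higher with sen1 and the 17 below are lower, and the CUP1 array genes go from 65.1% or more to 0% on WT and rrm3, apart from YHR054C, which starts lower.

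Of the 17 lower genes, 7 lie in the CUP1 array on chromosome VIII, which encodes the copper-binding metallothionein and is annotated here in 2 copies. Peaks covered the CUP1-1 window at 77.2% in WT and 0% in sen1, at 77.0% in rrm3 and 0% in sen1rrm3, at 100% in top1 and 77.2% in sen1top1, and at 100% in rrm3top1 and 73.7% in sen1rrm3top1. CUP1-2 followed it closely, from 73.7% to 0% on WT and from 100% to 73.5% on rrm3top1. The sen1 and sen1rrm3 lists had no peak anywhere in the array, and with top1 the array kept narrower peaks. The same array held the highest-scoring peak of the top1 and the rrm3top1 lists, from 212273 to 213288 in top1, 1016 bp wide, while in sen1top1 the 2 matching peaks were 194 and 537 bp wide and ranked 1674 and 284 of 4678. The other array members, YHR052C-B, YHR054C-B, YHR054C and the non-coding RNA genes RUF5-1 and RUF5-2, were lower in all 4 pairs by means of 35.2 to 50.8 points. Reads from the 2 annotated copies cannot be told apart, so these genes are 1 observation.

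DFR1, the dihydrofolate reductase gene, differed by nearly the same amount on every background. Its window was covered at 69.9% in WT and 39.5% in sen1, at 66.6% in rrm3 and 39.0% in sen1rrm3, at 72.4% in top1 and 39.4% in sen1top1, and at 66.3% in rrm3top1 and 39.1% in sen1rrm3top1. All 4 controls were above all 4 sen1 lists, in a gene chosen by its difference in these same lists. How many of all genes separate in this way was not counted. The mean difference was -29.5 ± 2.70 points (SD, n = 4 pairs). A 254-bp stretch from 780756 to 781009 on chromosome XV was under a peak in every control and in no sen1 list. SUE1, needed to degrade unstable cytochrome c, lay at 70.6% to 73.2% in the controls and at 28.4% to 49.6% in the sen1 lists, a mean of -28.0 ± 9.48 points.

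MHF1, which encodes a histone-fold protein of the Mph1-associated complex, and the reading frame YML054C-A had a peak in every control and none in any sen1 list. MHF1 was covered at 27.2% in WT and rrm3, 26.5% in top1 and 27.1% in rrm3top1, and at 0% in all 4 sen1 lists. Its lost stretch, from 158824 to 159024 on chromosome XV, lies between MHF1 and DUF1. YML054C-A, next to CYB2, was covered at 20.0% in all 4 controls and at 0% in all 4 sen1 lists, over chromosome XIII 167546 to 167714. The MHF1 peak began between 158818 and 158824 and ended between 159024 and 159028 in the 4 controls. By score these were not among the strongest peaks: the best placed, both in rrm3top1, ranked 1697 of 3777 for MHF1 and 1340 of 3777 for YML054C-A.

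RTG1, a transcription factor of the mitochondrial retrograde pathway, was lower by 25.8, 35.3, 10.8 and 11.2 points on WT, rrm3, top1 and rrm3top1. YML6, which encodes a protein of the large mitochondrial ribosomal subunit, was lower by 15.4, 17.7, 12.6 and 35.2 points. The remaining 4 lower genes fall outside the rule for named genes and are named after their values were seen. They are ROX1, a repressor of hypoxic genes (mean -14.4 ± 5.56 points), DOT6, a repressor of ribosome biogenesis genes (-13.8 ± 2.15), YDR222W (-19.5 ± 3.22) and YML018C (-14.4 ± 6.55). DOT6 shows how far backgrounds can differ beside a like sen1 difference: its controls were at 18.03% in WT, 45.4% in rrm3, 44.1% in top1 and 43.8% in rrm3top1.

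Of the 6 higher genes, 2 adjoin each other at the silent mating-type locus HML on chromosome III. YCL068C was covered at 16.2% in WT and 51.1% in sen1, at 0% in rrm3 and 43.7% in sen1rrm3, at 16.3% in top1 and 50.8% in sen1top1, and at 0% in rrm3top1 and 44.6% in sen1rrm3top1. The 2 kinds of list did not overlap, in a gene chosen by its difference in these same lists. HMLALPHA2, the silent copy of a mating-type regulator, was higher by 21.0, 25.0, 20.5 and 46.8 points. The 293-bp stretch from 12281 to 12573 on chromosome III, across both, was under a peak in every sen1 list and in no control. The expressed copy MATALPHA2 shares its sequence with the silent one, so reads may be split between them. It was at 0% in both WT and sen1 and higher with sen1 by 25.9 points on rrm3, 2.14 on top1 and 29.0 on rrm3top1.

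The other 4 higher genes, YLR157C-A, YLR256W-A, YML039W and YML045W, are reading frames with many annotated matches in length. YLR157C-A is 1 of 39 reading frames of its length and YML039W 1 of 24, so reads may be split between copies. YML039W was covered at 0% in WT and 21.4% in sen1, at 58.3% in rrm3 and 68.6% in sen1rrm3, at 0% in top1 and 18.2% in sen1top1, and at 43.4% in rrm3top1 and 71.8% in sen1rrm3top1. Each sen1 list was above its own control, but both rrm3 controls were above the sen1 and sen1top1 lists. YLR157C-A and YLR256W-A lie on chromosome XII beyond the rDNA, where the list labelled sen1rrm3top1 was high. In the other 3 pairs they differed by 12.3 to 41.2 points for YLR157C-A and by 11.5 to 40.3 points for YLR256W-A. The rule that chose them makes the same direction in those pairs certain, so it is no separate support.

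limma, fitted across the 3512 genes with a mean cover of at least 5% and with the pairs as blocks, called no gene at an adjusted p of 0.05 in either direction (0% higher and 0% lower). At an unadjusted p under 0.05 limma gave 72 genes higher (2.05%) and 110 lower (3.13%), and its lowest adjusted p was 0.197, shared by MHF1, YCL068C and YML054C-A. With sen1, rrm3 and top1 as additive factors in place of pair blocks, limma called 1 gene higher, YCL068C, by 39.4 points, and 1 lower, MHF1, by 27.0 points (difference -27.0), each with an adjusted p of 0.0410 and the same sign in 4 of 4 pairs (0.0285% of genes each way). That fit had 68 genes higher (1.94%) and 118 lower (3.36%) at an unadjusted p under 0.05. Cover is bounded and often exactly 0, so a gene such as YML054C-A, with the same difference in every pair, has almost no spread of its own in this fit.

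The 23 genes were followed in 4 sen1 pairs from other cultures whose lists have like spacing. Of the 6 higher genes, at least 10 points higher were 2 in sen1 over WT in S phase, 1 in sen1rrm3 over rrm3 in S phase and none in the 2 pairs with top2-1 at 32 °C. As much lower were 1, 0, 2 and 0 of the 6, and their median difference was 8.16, 0.18, -8.41 and -6.46 points in these pairs. Over all genes the shares that were higher were 32.0%, 15.4%, 5.41% and 7.18%. Of the 17 lower genes, 0, 1, 5 and 2 were at least 10 points lower in those pairs, and 6, 3, 4 and 2 were as much higher. All genes had 16.0%, 13.1%, 16.7% and 7.93% lower. MHF1 lost its peak in sen1top2-1, from 26.7% to 0%, and kept 26.7% in sen1rrm3top2-1, while in S phase it was covered at 97.0% or more in all 4 strains. CUP1-1 was covered at 100% in all 4 S-phase lists and at 76.3% to 77.2% in the 4 lists with top2-1. RTG1, lower in log phase, was at least 10 points higher with sen1 in 3 of these 4 pairs and lower in none. It went from 2.52% in top2-1 to 35.3% in sen1top2-1, and from 0% in rrm3top2-1 to 36.3% in sen1rrm3top2-1. DFR1 was as much higher in 2 of these pairs and lower in none. In S-phase Rpb1 lists the 6 higher genes had a median cover of 27.8% in WT, 33.1% in sen1, 28.3% in rrm3 and 31.8% in sen1rrm3. YCL068C and HMLALPHA2 were at 0% in all 4, so the cover lay in the 4 reading frames with many matches in length. The 17 lower genes, like all genes, had a median of 0% in each. Rpb1 peaks in WT touched 4 of the 6, 8 of the 17 and 2775 of all 6431 genes.

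Base pair by base pair, stretches under a peak in 4 lists of one kind and 0 of the other were short. The controls had 96 of them, 2622 bp in all (0.0217% of the nuclear genome), of which 12 were at least 50 bp long. The sen1 lists had 26, 1046 bp in all (0.00867%), of which 5 were at least 50 bp long. Besides SEN1, DFR1, MHF1 and YML054C-A, the control stretches of 100 bp and more lay in EGH1, a steryl glucosidase gene (207 bp), in YFR006W (181 bp), in SSK1, a response regulator of the osmotic stress pathway (159 bp), beside GSY1, a glycogen synthase gene (131 bp), and in RAM1, a farnesyltransferase subunit gene (115 bp). An 89-bp stretch lay beside PRI2, which encodes a primase subunit. The other sen1 stretches lay between PAU4 and YLR460C (222 bp), between COA2 and NAB3 (149 bp) and in MCH5, a riboflavin transporter gene (91 bp).

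Few of these stretches behaved the same way elsewhere. For the 12 control stretches, 48 values from the 4 other pairs held 12 differences of at least 50 points the same way and 6 the opposite way. For the 5 sen1 stretches, 20 values held 5 the same way and 1 the opposite way. The SEN1 stretch gave 2 of the 12 and the GAL1 stretch 2 of the 5. List sizes differed within these pairs. The sen1top2-1 list held 3171 peaks against 4161 in top2-1, and the S-phase sen1 list 3182 against 2678 in WT. How often other covered stretches moved as much was not counted, so these counts cannot be set against a base rate. SSK1 was covered at 93.1% or more in all 4 S-phase lists, and the EGH1 stretch was at 0% in WT and 100% in the other 3 S-phase strains. NAB3 encodes a partner of Sen1 in termination. The stretch between it and COA2 was covered at 98.7% in WT and 100% in sen1 in S phase, and at 0% in rrm3 and sen1rrm3 there. At 32 °C it was at 0% in top2-1 and 100% in sen1top2-1, and at 0% in both rrm3top2-1 and sen1rrm3top2-1.

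Of 14 feature classes, 1 was higher in relative coverage in all 4 pairs, 2 were lower in all 4 and 11 were mixed. In 6 of the mixed classes, the rDNA, snoRNA genes, gene 3' ends, convergent and tandem intergenic stretches and chromosome ends, the sen1 list was lower on WT and rrm3top1 and higher on rrm3 and top1. In 2 more, gene bodies and ribosomal protein genes, the same backgrounds moved the opposite way.

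**Figure D4:**
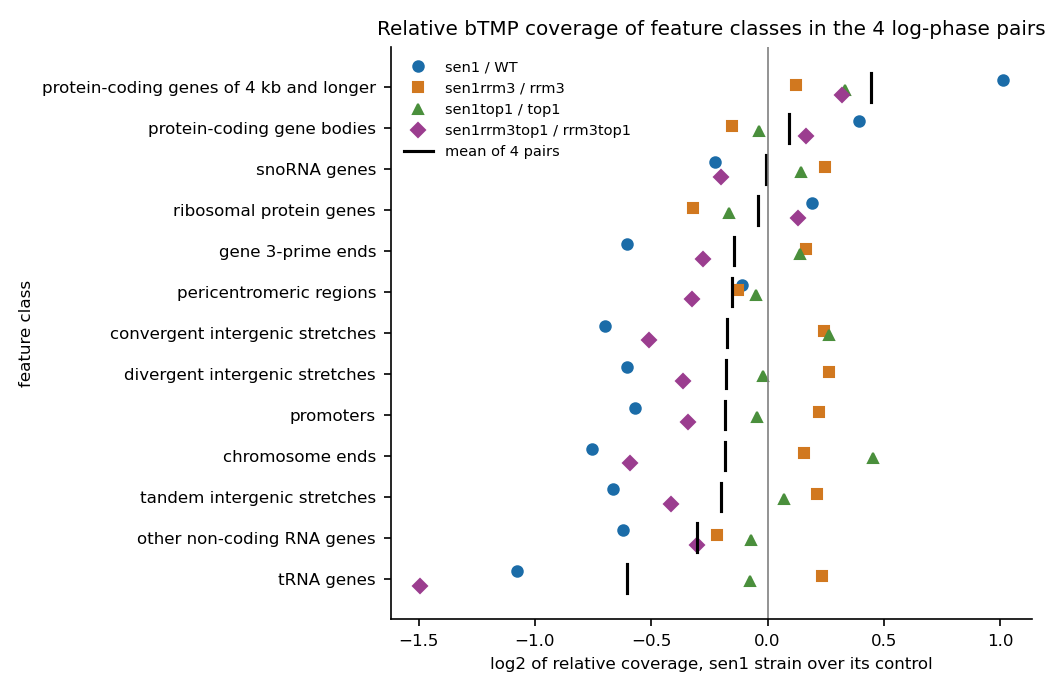
Relative coverage of 13 feature classes as the log2 ratio of the sen1 strain over its control, with 1 symbol per pair and a black bar at the mean of the 4 pairs. Genes of 4 kb and longer are above zero in all 4 pairs, other non-coding RNA genes and pericentromeric regions are below zero in all 4, and tRNA genes spread from -1.50 to 0.23.

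Protein-coding genes of 4 kb and longer, 240 in all, were higher in relative coverage as a class, though on rrm3 more of the genes were lower than higher. Their relative coverage was 0.451 in WT and 0.908 in sen1, 1.25 in rrm3 and 1.36 in sen1rrm3, 0.802 in top1 and 1.01 in sen1top1, and 1.19 in rrm3top1 and 1.48 in sen1rrm3top1. The mean log2 difference was 0.45 ± 0.39 (SD, n = 4 pairs; p = 0.125 by the exact sign-flip permutation test, 0.542 adjusted over 13 classes), and 0.26 without the pair on WT. Among these genes, 34 belong to sets of 5 or more long genes of equal length, between which reads may be split. They had a mean of 1.01 ± 0.81 and higher values in 4 of 4 pairs. Peaks covered 4.42% of their bodies in WT and 20.4% in sen1, 44.4% in rrm3 and 50.5% in sen1rrm3, 13.4% in top1 and 27.7% in sen1top1, and 36.3% in rrm3top1 and 53.9% in sen1rrm3top1. On rrm3 the class was higher only relative to the whole list: body cover was 12.7% in rrm3 and 11.4% in sen1rrm3, 55 of the 240 genes were higher and 125 lower, and peaks touched 172 in rrm3 and 154 in sen1rrm3. On WT, top1 and rrm3top1, 157, 133 and 138 genes were higher and 45, 76 and 65 lower. The other 206 long genes had a mean of 0.16 ± 0.39 and were higher in 3 pairs and lower on rrm3 (exact sign-flip permutation p = 0.500, n = 4 pairs). That mean is not particular to this length. The 287 genes of 3 to 4 kb also had a mean of 0.16, with 2 pairs higher. The 893 genes under 500 bp had -0.14, with 1 pair higher. In other cultures the whole class was higher by 0.70 in S-phase sen1 and lower by 0.45 in sen1top2-1 (log2 -0.45), with 0.09 and 0.05 in the remaining 2 pairs.

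Other non-coding RNA genes, 38 that are neither tRNA, snoRNA nor rRNA, were lower in relative coverage. The values were 1.98 in WT and 1.28 in sen1, 1.43 in rrm3 and 1.23 in sen1rrm3, 1.63 in top1 and 1.56 in sen1top1, and 1.60 in rrm3top1 and 1.29 in sen1rrm3top1, a mean log2 difference of -0.30 ± 0.23 (n = 4 pairs; p = 0.125 by the exact sign-flip permutation test, 0.542 adjusted). RUF5-1 and RUF5-2 of the CUP1 array were the only 2 members lower by 10 points in 4 of 4 pairs. Without them the mean was -0.11, with 2 pairs higher and 2 lower, and with them but without the pair on WT it was -0.20. RNA170 went from 100% to 0% on WT, rrm3 and rrm3top1 and was at 0.592% in top1 and 7.69% in sen1top1.

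Pericentromeric regions, 20 kb to each side of the 16 centromeres, had a relative coverage of 1.55 in WT and 1.44 in sen1, 1.42 in rrm3 and 1.29 in sen1rrm3, 0.954 in top1 and 0.920 in sen1top1, and 1.13 in rrm3top1 and 0.903 in sen1rrm3top1. The sen1 list was the lower in each pair, by a mean log2 difference of -0.15 ± 0.12 (n = 4 pairs; p = 0.125 by the exact sign-flip permutation test, 0.542 adjusted), and by -0.10 without the pair on rrm3top1. In 3 of the 4 pairs from other cultures the sen1 list was the higher.

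Promoters, the 300 bp upstream of protein-coding genes, were the most covered part of genes in all 8 lists. In 50-bp bins around gene starts the highest relative coverage lay in the last 50 bp before the start in every list. It was 2.52 in WT and 1.92 in sen1, 1.97 in rrm3 and 2.21 in sen1rrm3, 1.75 in top1 and 1.67 in sen1top1, and 1.80 in rrm3top1 and 1.48 in sen1rrm3top1. Over the whole 300 bp, relative coverage was lower with sen1 on WT (2.08 to 1.40), top1 (1.36 to 1.32) and rrm3top1 (1.38 to 1.09) and higher on rrm3 (1.54 to 1.79). The mean log2 difference was -0.18 ± 0.34 (n = 4 pairs; p = 0.375 by the exact sign-flip permutation test, 0.739 adjusted). Without the pair on WT the mean was -0.06, without rrm3 -0.32 and without rrm3top1 -0.13. The number of promoters touched by a peak was lower with sen1 in 4 of 4 pairs: 1976 against 1569, 1879 against 1792, 1934 against 1795 and 1594 against 1527 of 6002. This count does not allow for list size, and the sen1 list held fewer peaks on rrm3 (3490 against 4254) and top1 (4678 against 4901). Gene bodies touched numbered 2425 in WT and 2656 in sen1, 2704 in rrm3 and 2258 in sen1rrm3. They numbered 3160 in top1 and 2978 in sen1top1, and 2523 in rrm3top1 and 2744 in sen1rrm3top1.

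tRNA genes, transcribed by RNA polymerase III and a known barrier to replication forks, did not move one way over the 4 backgrounds. Of 275 nuclear tRNA genes widened by 100 bp, a peak touched 63 in WT (22.9%, exact 95% binomial interval 18.1% to 28.3%) and 42 in sen1 (15.3%, 11.2% to 20.1%). On rrm3 the numbers were 54 and 53, on top1 39 and 44, and on rrm3top1 46 and 26 (16.7%, 12.5% to 21.7%, and 9.45%, 6.27% to 13.5%). The intervals cover counting error only. On WT, 24 tRNA genes lost their peak with sen1 and 3 gained one, and on rrm3top1 25 lost and 5 gained. On rrm3, 11 lost and 10 gained, and on top1 13 lost and 18 gained. By the unlike measure of 10 points of window cover, 11.6% of all 6431 genes were lower and 12.9% higher with sen1 on WT. On rrm3top1 these shares were 10.2% and 13.9%, on rrm3 12.6% and 5.21%, and on top1 11.5% and 8.93%. The share of all genes that lost or gained touch within each pair was not counted. The mean log2 difference in relative coverage was -0.60 ± 0.82 (n = 4 pairs; p = 0.375 by the exact sign-flip permutation test, 0.739 adjusted), and -0.31 without the pair on rrm3top1.

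A single tRNA gene, YNCF0005C on chromosome VI, lost its peak in 4 of 4 pairs (0.364% of tRNA genes), and none gained one in 4 of 4 (0.0%). Over all 6431 genes widened the same way, 4 lost their peak in every pair (0.0622%) and 1 gained one (0.0155%). YNCF0005C was covered at 17.1% in WT, 18.5% in rrm3, 17.8% in top1 and 18.8% in rrm3top1, and at 0% in all 4 sen1 lists. The peak belongs to the neighbouring stretch in YFR006W (chromosome VI 157685 to 157865) and reaches only the flank of the tRNA gene. By the gene-window measure, which reaches farther upstream, YNCE0013W was lower in 3 pairs (36.3% to 0% on WT, 14.8% to 0% on rrm3, 36.0% to 0% on top1, 0% in both lists on rrm3top1). YNCL0050C was higher in 3, at 0% in WT, sen1 and the other 3 controls and at 33.7% to 36.6% in the other 3 sen1 lists. Of the 275 tRNA genes, 186 had no peak in any of the 8 lists, and 10 had one in all 8.

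**Figure D5:**
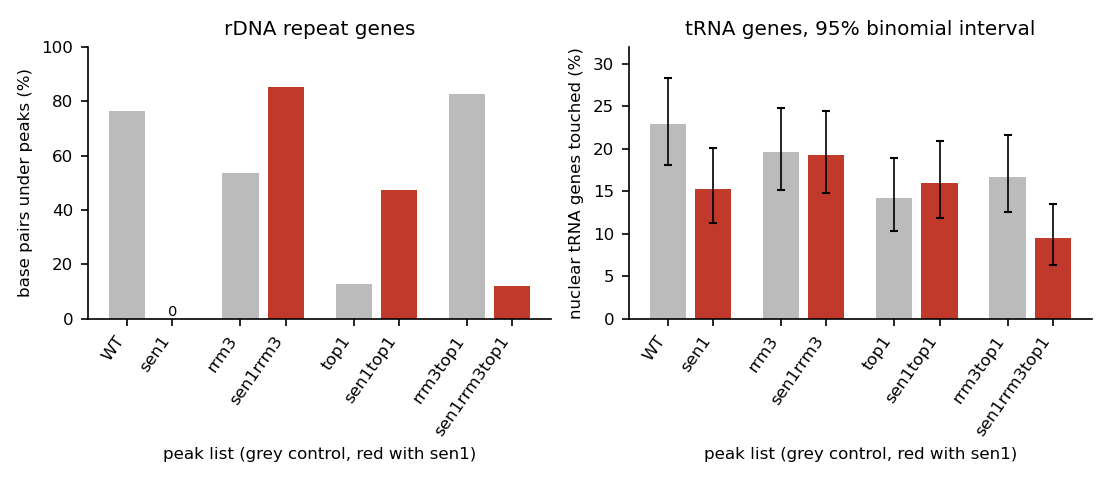
Left, percent of the base pairs of the rDNA repeat genes under bTMP peaks in each list, and right, percent of 275 nuclear tRNA genes touched by a peak, with exact 95% binomial intervals, controls in grey and sen1 lists in red. rDNA cover is 76.4% in WT and 0% in sen1, 82.6% in rrm3top1 and 11.9% in sen1rrm3top1, and is higher with sen1 on rrm3 and top1.

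The rDNA, tandem repeats on chromosome XII that RNA polymerase I transcribes, differed widely within each pair, in both directions. Peaks covered the annotated repeat genes at 76.4% in WT and 0% in sen1, at 53.7% in rrm3 and 85.1% in sen1rrm3, at 12.6% in top1 and 47.2% in sen1top1, and at 82.6% in rrm3top1 and 11.9% in sen1rrm3top1. The sen1 list was thus lower on 2 backgrounds and higher on 2. The 35S precursor genes followed the class, RDN37-1 going from 79.9% to 0% on WT, from 60.8% to 89.2% on rrm3, from 14.5% to 52.1% on top1 and from 83.7% to 15.5% on rrm3top1. RDN18-1, which encodes 18S rRNA, was at 55.2% in WT and 0% in sen1, and at 44.1% in rrm3 and 85.4% in sen1rrm3. RDN58-1 and RDN58-2, for 5.8S rRNA, were at 0% in all 8 lists. RDN5-1, for 5S rRNA, was at 100% in sen1rrm3, at 0.826% in rrm3top1 and at 0% in the other 6 lists.

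Over the rDNA block the peaks differed in form as well as in number. The longest was 3425 bp in WT and 283 bp in sen1, 2025 bp in rrm3 and 6510 bp in sen1rrm3, 373 bp in top1 and 878 bp in sen1top1, and 3992 bp in rrm3top1 and 619 bp in sen1rrm3top1. By the authors' score, the block's peaks had a median percentile of 75.2 in WT and 0.0528 in sen1, 40.8 in rrm3 and 91.8 in sen1rrm3, 1.39 in top1 and 24.2 in sen1top1, and 94.2 in rrm3top1 and 0.928 in sen1rrm3top1, so lists with little cover had it in their weakest peaks. In the spacer between RDN5-1 and RDN37-2, cover was 99.0% in WT and 24.4% in sen1, 98.7% in rrm3 and 100% in sen1rrm3, 0% in top1 and 58.5% in sen1top1, and 100% in rrm3top1 and 28.0% in sen1rrm3top1. The annotation holds only a few of the tandem copies, so a peak here sums over all of them. In S phase the repeat genes were covered at 86.8% to 97.1% in all 4 strains.

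snoRNA genes, which guide modification of ribosomal RNA, had no member that moved by 10 points in 4 of 4 pairs when the 76 gene bodies were compared. SNR68 was at 0% in 5 lists and at 98.5% in sen1rrm3, 100% in sen1top1 and 99.3% in sen1rrm3top1, and so was higher in 3 of 4 pairs. SNR56 was lower on WT (79.5% to 0%), rrm3 (100% to 89.8%) and rrm3top1 (90.9% to 0%), and was at 95.5% in top1 and 100% in sen1top1. The class had a mean log2 difference of -0.01 ± 0.24 (n = 4 pairs, exact sign-flip permutation p = 1).

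Other gene lists held almost no member that moved alike in all pairs. Of 24 lists, 1 had such a member, HMLALPHA2 among 19 pheromone and mating-type genes (median of the mean differences 1.46 points, against 0 over all 6431 genes). The list of mitochondrial ribosomal protein genes was filled by name pattern, which leaves out YML6, lower in 4 of 4 pairs. In 3 or more pairs with none opposed, 64 of all genes were higher (0.995%) and 106 lower (1.65%). In the lists these included the histone H3 gene HHT2 among 10 histone genes (25.2% to 0% on WT, 31.1% to 22.8% on rrm3, 22.5% to 0% on top1 and 25.7% to 0% on rrm3top1), the cochaperone gene SIS1 among 20 heat-shock genes, and MAF1, a repressor of RNA polymerase III, among 24 genes of that polymerase. Histone genes had the lowest median of the lists, -8.73 points. Among 138 ribosomal protein genes RPS2 and RPS7B were lower and RPL39 higher in 3 pairs. No member of the termination factor list of 28 genes, the attenuated list of 9 or the galactose list of 8 differed by 10 points the same way in 3 pairs over the whole gene window. GAL1 is among them because its upstream stretch and its body went opposite ways, as given above. Of the genes named by earlier work on these data, HMLALPHA2 met the rule in 4 of 4 pairs. MSL1, EFM6, VPS501 and NOP15 did not, with mean differences of -16.4, 9.63, 8.05 and 10.6 points. In the 4 like-spaced sen1 pairs from other cultures, MSL1 was at least 10 points lower in all 4 and EFM6 as much higher in all 4. VPS501 was higher in 3 and lower in none, and NOP15 was higher in 3 and lower in 1. These genes were picked from the same series, possibly by these very libraries, so the values are no separate support. The share of all genes that moved alike in these 4 pairs was not counted.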

How the data were processed

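The data are peak lists for bTMP pull-downs, 1 per library, with a score per peak given by the authors on a scale that is not stated; as deposited, the score was used only to rank peaks within a list. Bowtie2, Picard, SAMtools and deepTools are named, per the submitters' processing notes, without versions; the sources used here name neither the peak caller nor the genome build. Gene positions came from the RefSeq R64 annotation. As a check of the build, wild-type Rpb1 peaks covered 138 ribosomal protein genes best (99.3%) at shifts of -50 to 50 bp and less at -400 (79.9%) and +400 bp (85.1%).

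Covered base pairs were computed per gene window (body plus 300 bp upstream) and class with Python 3.11.15, numpy 2.4.6, pandas 2.3.3 and scipy 1.17.1, after tests on simulated data. Pairs were tested by exact sign flips, and genes with limma 3.58.1 in R 4.3.3 (trend, robust, pair blocks, mean cover of at least 5%). Partners share the rest of their genotype, which is the pairing. The p-values measure the spread between pairs. Background and library differences cannot be told apart in it, since each strain has 1 library. Alternatives were other windows, list lengths, filters and scales, and each pair left out.

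Members and lists were chosen with earlier results of these data known. Named genes are the 12 with the largest mean difference each way among those that met the 4 of 4 rule, every non-coding gene and list member that met it, those nearest the 8 longest stretches each way, limma calls and the strain loci. Promoter sequences were not analysed here.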

Additional observations from a re-analysis of the deposited data

Results flagged for a closer look

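Among 29 groups of 4 values examined for a value far from the others, 3 had one, and chance alone marks about 1 in 20 such groups. The relative coverage of chromosome XII differed by 0.66 (log2) in the pair on rrm3top1, against -0.04 to 0.07 in the other 3 pairs, as described for the list labelled sen1rrm3top1. Chromosome III differed by -0.17 in the same pair, against 0.09 to 0.11 in the others. Chromosome IV differed by 0.16 in the pair on WT, against 0.01 to 0.03 in the others.

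On chromosome XIV the 2 pairs without rrm3 were higher with sen1 (0.04 and 0.04, log2) and the 2 pairs with rrm3 lower (-0.05 and -0.08). The means differ by -0.11, and this difference was not tested. In this measure the high chromosome XII of sen1rrm3top1 lowers the other chromosomes of the pair on rrm3top1, III and XIV included.

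Mitochondrial DNA, which no comparison above uses, held 18 peaks in sen1rrm3 and 3 in its control rrm3. WT held 1 and rrm3top1 held 3, and the other 4 lists held none.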

How the results depend on the processing

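Of the alternative values for the main results, 154 moved by less than the spread between pairs (counts, by less than 1.5 times) and 39 by more. The 6 higher genes became 2 at 20 points and 66 at 1 point, and 13 to 38 with a pair left out. The 17 lower genes became 9 at 20 points, 116 at 1 point, 11 with lists of equal length, 11 with the higher-scoring 50% of each list, and 42 to 57 with a pair left out. Equal-length lists kept 3 of the 6 and 10 of the 17, the higher-scoring 50% kept 2 and 7, the gene body alone 6 and 10, and the 300 bp upstream alone 1 and 5. In those 50%, YML6 (3.19 points), RTG1 (0.060) and ROX1 (4.46) turned higher; the cause was not tested. Stretches in sen1 lists only, 26 in all, numbered 5 at 50 bp, 4 at 100 bp, 5 with control peaks widened by 50 bp, and 86 to 204 with a pair left out. Those in controls only, 96, numbered 12, 9 and 12, and 263 to 412. The pericentromeric mean was -0.34 in the higher-scoring 50%. With no replicate block of pairs, limma called 1 gene higher and 1 lower; every other limma alternative called 0, with 0 to 0 when pairs were left out. Requiring overlap of 50% of a peak, the shared share was 64.5% in WT, 60.7% in sen1, 66.5% in rrm3, 81.7% in sen1rrm3, 73.9% in top1, 76.6% in sen1top1, 71.9% in rrm3top1 and 62.4% in sen1rrm3top1. The share of members touched gives no value for pericentromeric regions, all of which are touched. Lists hold no read depth, so a missing peak shows only that none was called, and 1 library per strain leaves no repeat of a strain.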
